A study of Mus musculus with 12 samples.

Results

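The 10 genes described here encode adaptor proteins of antigen receptor signalling in T cells: Lat, Lat2, Lcp2, Grap2, Trat1, Pag1, Sit1, Sh2d1a, Sh2d2a and Ubash3a. They were taken by symbol from a mouse read count table with 25899 different symbols, and all 10 were found there. The table held 12 RNA-seq libraries of intraepithelial lymphocytes (IEL) sorted from the small intestine of Rag2-/- hosts, which lack their own T and B cells but keep innate lymphocytes. Hosts had been given lymph node T cells of Themis wild-type donors in 1 intravenous injection 1 week earlier, and the labels give the genotype of every sample as WT. Hosts of CD4+ T cells gave the groups CD4 IEL (sorted as TCRβ CD4+) and CD8αα from CD4 (sorted as TCRβ CD8αα+). Hosts of CD8αβ+ T cells gave CD8αβ IEL (sorted as TCRβ CD8αβ+) and CD8αα from CD8αβ (sorted as TCRβ CD8αα+). Each group had 3 libraries. Age is not given in the labels, and nor is whether replicates were separate animals, so a p-value reflects no more than the spread among these libraries, which may be technical.

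Adaptors bring other signalling proteins together. In T cells the receptor-linked kinase ZAP-70 phosphorylates LAT, a membrane scaffold, and LAT then recruits phospholipase C-γ1 and, through the bridging adaptor GADS (Grap2), the cytosolic scaffold SLP-76 (Lcp2). LAT2, also called NTAL or LAB, is built like LAT and is best known from mast cells, B cells, NK cells and monocytes, where receptors signal through ITAM chains and the kinase SYK. The remaining members sit beside this core: TRIM (Trat1) associates with the receptor, PAG, SIT and UBASH3A are counted among the inhibitory proteins, and SAP (Sh2d1a) and TSAd (Sh2d2a) are small adaptors with an SH2 domain.

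Values that concern the identity of the libraries come first. T cell markers were low in both groups labelled CD8αα: the summed level of 9 genes (Cd3d, Cd3e, Cd5, Cd6, Cd2, Cd28, Bcl11b, Tcf7 and Lef1) was 30.5 to 99.8 CPM (read counts put on a common library total, which was scaled by TMM) in CD8αα from CD4 and 61.4 to 69.4 in CD8αα from CD8αβ, against 4572 to 4960 in CD4 IEL, with CD8αβ IEL at 3411 to 4303. All 9 were lower in both comparisons (13.5% and 15.1% of all genes tested were lower). A list of 16 NK cell and innate lymphoid markers, which includes Fcer1g and Tyrobp, summed to 4200.2 to 6791 CPM in the CD8αα libraries and 2029 to 2413 in the others, with 6 genes called higher and 5 lower in CD8αα from CD4 (15.0% and 13.5% of all genes tested) and 6 and 3 in CD8αα from CD8αβ (16.1% and 15.1%). Fcer1g and Tyrobp carried the rise of that sum, so leaving them out built in a smaller remainder. The other 14 genes gave CD8αα from CD4 a sum of 1687 to 1998 CPM, below CD4 IEL (2149.9 to 2367). CD8αα from CD8αβ (1641 to 1942) was likewise below CD8αβ IEL (1977 to 2024). For this list, the ranges of CD8αα from CD4 and CD8αβ IEL overlapped. Of its defining markers, Klrb1c (NK1.1) was at 204 ± 40.3 and 332 ± 12.8 CPM in CD8αα from CD4 and CD8αα from CD8αβ, while Ncr1 (NKp46) was at 4.27 CPM or less in each of those libraries. Intestinal epithelium markers (15 genes) summed to 501 to 993 CPM in the CD8αα libraries and 115 to 746 in the others. Of 13 tested, 2 were higher in CD8αα from CD4 (15.0% of all genes were higher). In CD8αα from CD8αβ 4 of 13 were higher (16.1% of all genes), and the rest were not called. Epcam and Cdh1 were left out next because they carried most of the epithelial sum in CD8αα from CD4, so a smaller remainder was again built in. Without them the sum was 169 to 204 CPM in CD8αα from CD4 and 62.1 to 124 in CD4 IEL. The ranges of CD8αα from CD8αβ (144 to 514) and CD8αβ IEL (184 to 620.3) overlapped. All 6 CD4 IEL and CD8αβ IEL libraries held Y-linked transcripts (233 to 449 CPM). Of the CD8αα libraries, replicate 3 of CD8αα from CD4 (363 CPM) and replicate 2 of CD8αα from CD8αβ (321 CPM) did so too, while the other 4 had at most 1.03 CPM and carried Xist at 373 to 644 CPM. The part of these differences in the results below was not tested, and "CD8αα" in the text is the label. Library totals were 5620257 to 11070734 counts, and in bulk RNA fewer cells with a transcript and less of it per cell cannot be told apart.

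Lat was high in CD4 IEL and CD8αβ IEL and low in both CD8αα groups, and Lat2 was the reverse. CD4 IEL and CD8αβ IEL are together called the T cell groups, a short name only, since the CD8αα groups were also sorted with TCRβ. Lat (ENSMUSG00000030742; mm10 chromosome 7, 126363832 to 126369543, minus strand) had 6871, 5842 and 7353 reads in the 3 CD4 IEL libraries and 8662, 8222 and 7200 in the CD8αβ IEL libraries. The CD8αα from CD4 libraries had 213, 379 and 359 Lat reads and the CD8αα from CD8αβ libraries 429, 399 and 265. Every CD8αα library was thus far below every library of CD4 IEL or CD8αβ IEL, and the 2 CD8αα groups overlapped each other. In CPM, Lat stood at 870.2 ± 199 (SD, n = 3) in CD4 IEL against 45.2 ± 9.95 in CD8αα from CD4, which is 5.20% of the CD4 IEL mean. It stood at 1084 ± 187 in CD8αβ IEL against 37.6 ± 6.34 in CD8αα from CD8αβ, or 3.47%. The log2 fold changes were -4.26 ± 0.23 (SE; adjusted p = 4.378e-08, quasi-likelihood test of edgeR, Benjamini-Hochberg adjustment over 12622 genes, as for all adjusted p-values below) and -4.85 ± 0.24 (adjusted p = 1.037e-08).

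Lat2 (ENSMUSG00000040751; chromosome 5, 134600268 to 134615023, minus strand) had 106, 183 and 66 reads in CD4 IEL and 79, 256 and 100 in CD8αβ IEL. CD8αα from CD4 had 3145, 5069 and 3526 reads and CD8αα from CD8αβ had 5857, 5323 and 4855. Again no CD8αα library overlapped a library of the T cell groups, and again the CD8αα groups overlapped each other. The means were 15.1 ± 7.64 and 18.1 ± 8.17 CPM in CD4 IEL and CD8αβ IEL, against 556 ± 22.5 in CD8αα from CD4 (36.8-fold higher) and 557 ± 9.20 in CD8αα from CD8αβ (30.7-fold higher). The corresponding log2 fold changes were 5.20 ± 0.35 (adjusted p = 2.045e-07) and 4.93 ± 0.35 (adjusted p = 2.123e-07). With only the 2 CD8αα libraries that held Y-linked transcripts (1 per group), Lat gave -3.96 and -4.67, and Lat2 gave 5.19 and 4.95, all still past the threshold.

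**Figure D1:**
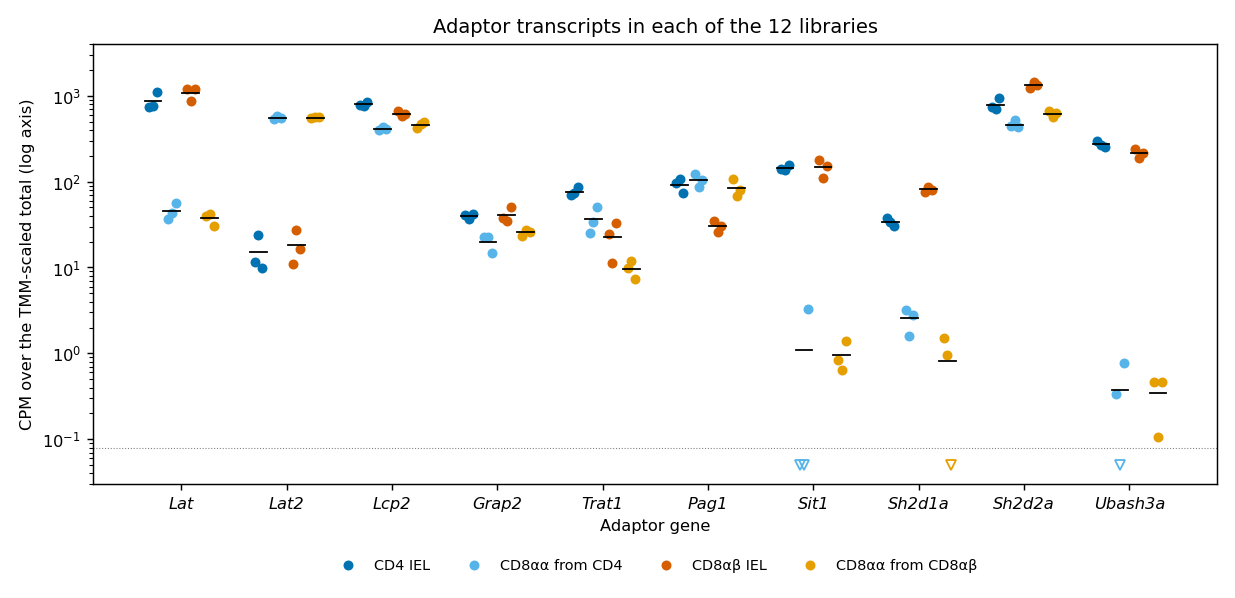
CPM of each adaptor gene (log axis) in the 12 libraries, 1 point per library, coloured by group, with a bar at the mean of 3. Triangles under the dotted line are libraries with 0 reads. Lat and Lat2 trade places between the T cell groups and the CD8αα groups, and Sit1, Sh2d1a and Ubash3a lie near the floor in both CD8αα groups.

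To compare the levels of the 2 genes, reads were divided by the length of all annotated exons (2767 bases for Lat, 2621 for Lat2) to give RPKM. Lat made up 96.8 to 99.1% of the summed Lat and Lat2 RPKM in the 6 libraries of the T cell groups and 4.92 to 8.80% in the 6 CD8αα libraries. Lat was 30.2 to 105.5 times Lat2 in the former, and Lat2 was 10.4 to 19.3 times Lat in the latter. The log2 ratio of Lat to Lat2 differed by -9.57 between CD8αα from CD4 and CD4 IEL and by -9.88 between CD8αα from CD8αβ and CD8αβ IEL. Averaged over both, the difference was -9.72, with an exact two-sided permutation p of 0.005 (groups permuted within the hosts of each donor cell type), the smallest that the 400 arrangements allow. With the length of the longest coding transcript instead (1235 and 1717 bases) and 0.5 reads added, Lat2 was 7.06 to 13.2 times Lat in the CD8αα libraries, so the order of the 2 genes did not turn.

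**Figure D2:**
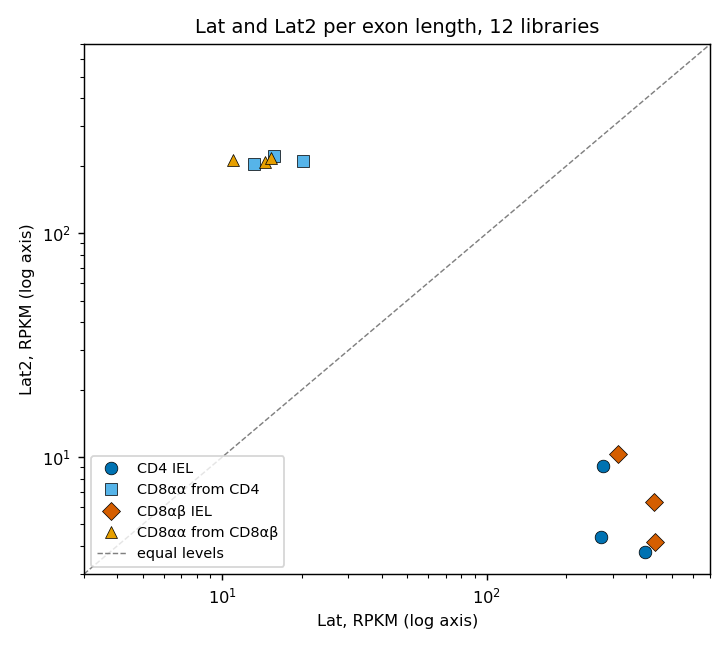
Lat against Lat2 RPKM (both log axes) in the 12 libraries, with the line of equal levels. The 6 CD4 IEL and CD8αβ IEL libraries lie below the line and the 6 CD8αα libraries above it, with no library between.

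Among the 10 genes, Lat had the highest mean RPKM in CD4 IEL (314) and in CD8αβ IEL (392), and Lat2 had the highest in CD8αα from CD4 (212) and CD8αα from CD8αβ (212). These first places held with both gene lengths. With all annotated exons as length, the sum of Lat and Lat2 was 320.3 ± 70.4 RPKM for CD4 IEL and 228 ± 9.73 for CD8αα from CD4. It was 399 ± 64.8 for CD8αβ IEL and 226 ± 4.39 for CD8αα from CD8αβ. Relative to Lcp2, the partner scaffold, Lat stood at 1.75 and 2.81 in CD4 IEL and CD8αβ IEL and at 0.176 and 0.133 in the 2 CD8αα groups. Lat2 relative to Lcp2 was 0.0327 and 0.0510 in the former and 2.28 and 2.06 in the latter. The sum relative to Lcp2 was 1.78 ± 0.287, 2.46 ± 0.0365, 2.87 ± 0.364 and 2.20 ± 0.168 in CD4 IEL, CD8αα from CD4, CD8αβ IEL and CD8αα from CD8αβ. Compared by donor cell type, the CD8αα libraries had the higher mean sum per Lcp2 in hosts of CD4+ cells. In hosts of CD8αβ+ cells they had the lower. The first order depended on gene length. With the longest coding transcript, mean Lat, Lat2 and Lcp2 RPKM were 705, 8.79 and 219 in CD4 IEL. They were 36.6, 324 and 114 in CD8αα from CD4, so its sum per Lcp2 was no longer the higher. These differences were given no test.

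**Figure D3:**
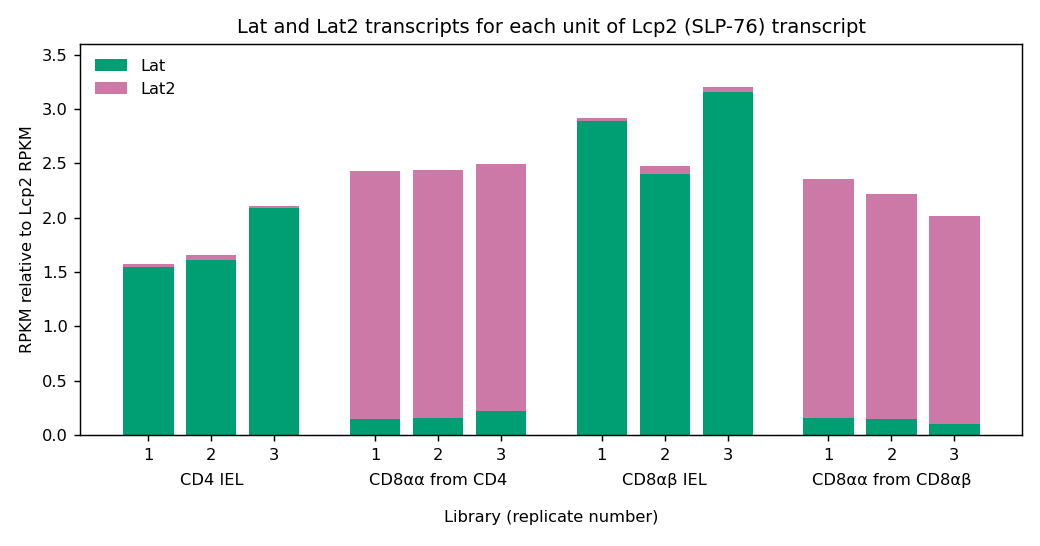
Lat and Lat2 RPKM divided by Lcp2 RPKM, stacked, 1 bar per library. Lat fills nearly the whole bar in the T cell groups and Lat2 in the CD8αα libraries, while the full height runs from 1.57 to 3.20 over all 12.

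Exons of Lat2 share 952 bases with Rfc2, a DNA replication gene on the opposite strand, and whether the counting used strand is not given in the sources used here. Rfc2 was at 103 ± 30.4, 225 ± 14.6, 149 ± 16.1 and 252 ± 15.7 CPM in CD4 IEL, CD8αα from CD4, CD8αβ IEL and CD8αα from CD8αβ. Like Lat2, Rfc2 was called higher in CD8αα from CD4 than in CD4 IEL (1.13 log2, adjusted p = 0.0004046). It was also called higher in CD8αα from CD8αβ than in CD8αβ IEL (0.76, adjusted p = 0.005911). How far shared reads entered either count was not tested. Lat2 was 0.0740 to 0.234 of Rfc2 in the T cell groups and 2.13 to 2.54 times Rfc2 in the CD8αα libraries, so Lat2 had more reads than the overlapping gene in the CD8αα libraries. Lat shares 75 exon bases with a microRNA gene, Mir7058, and Lcp2 shares 282 with 4930469K13Rik, which did not exceed 2.72 CPM in a library.

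The cytosolic scaffold and its bridge changed much less. Lcp2 (ENSMUSG00000002699, chromosome 11, 34046920 to 34092295), which encodes SLP-76, was at 781, 764 and 849.6 CPM in CD4 IEL against 399, 434 and 410.4 in CD8αα from CD4. It was at 669, 583 and 605 in CD8αβ IEL against 423, 464 and 494 in CD8αα from CD8αβ. No CD8αα library reached a library of its companion group (CD4 IEL or CD8αβ IEL, from hosts given the same donor cells). The CD8αα means were 51.9% and 74.3% of the companion means, with log2 fold changes of -0.95 ± 0.11 (adjusted p = 2.498e-05) and -0.43 ± 0.11 (adjusted p = 0.008855). Grap2, the GADS gene (ENSMUSG00000042351, chromosome 15, 80623505 to 80650559), had 40.4, 36.6 and 42.2 CPM in CD4 IEL against 22.7, 22.4 and 14.8 in CD8αα from CD4. In CD8αβ IEL it had 37.7, 34.8 and 51.0, and in CD8αα from CD8αβ 23.4, 27.6 and 25.9. Grap2 was thus lower in both CD8αα groups without overlap, by log2 fold changes of -0.99 ± 0.21 (adjusted p = 0.003154) and -0.68 ± 0.21 (adjusted p = 0.02367). The second Grap2 call was lost without replicate 1 or 3 of CD8αα from CD8αβ (adjusted p = 0.08676 and 0.06391) or replicate 3 of CD8αβ IEL (0.08231). With only the CD8αα libraries that held Y-linked transcripts, the CD8αα from CD8αβ calls of Lcp2 (-0.41, adjusted p = 0.2466) and Grap2 (-0.57, adjusted p = 0.3293) were lost.

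RefSeq promoter windows (GRCm38.p6, the mm10 assembly) matched 6 of the 10 genes: Lat, Lcp2, Grap2, Trat1, Sit1 and Ubash3a. Lat and Sit1 transcripts fell to a few percent or less in the CD8αα libraries, and Lcp2, also called lower, fell less. For these 3 genes the 220 bases from 250 to 31 before the RefSeq start are printed. They read 5′ to 3′ on the strand of the gene, with capitals marking the ETS core GGAA (or TTCC on the other strand) and the TCF core CTTTGA (or TCAAAG).
Lat, chr7:126369599-126369818, minus strand: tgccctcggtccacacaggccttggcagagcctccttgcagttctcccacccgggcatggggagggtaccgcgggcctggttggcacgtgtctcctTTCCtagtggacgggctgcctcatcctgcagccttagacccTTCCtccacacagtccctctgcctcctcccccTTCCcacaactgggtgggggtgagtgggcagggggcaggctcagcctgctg
Sit1, chr4:43483740-43483959, minus strand: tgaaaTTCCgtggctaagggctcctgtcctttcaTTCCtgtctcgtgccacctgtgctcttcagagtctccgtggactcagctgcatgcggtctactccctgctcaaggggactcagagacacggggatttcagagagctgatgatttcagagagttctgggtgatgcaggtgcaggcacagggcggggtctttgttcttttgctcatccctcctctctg
Lcp2, chr11:34046678-34046897, plus strand: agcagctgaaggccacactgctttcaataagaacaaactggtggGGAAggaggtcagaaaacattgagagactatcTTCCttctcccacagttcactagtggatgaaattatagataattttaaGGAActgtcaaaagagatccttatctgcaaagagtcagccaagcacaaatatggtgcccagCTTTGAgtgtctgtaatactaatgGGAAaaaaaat
The windows held 3 ETS cores in Lat, 2 in Sit1 and 4 in Lcp2, a motif found in 91.1% of 32817 windows of this length. Lcp2 also held 1 TCF core, found in 12.6% of windows, and 2 GATA cores (AGATAA or TTATCT, not in capitals), found in 9.04%, which were not in the Lat or Sit1 window. The E-box CANNTG, found in 62.1%, occurred 2 times in Lat, 3 in Sit1 and 1 in Lcp2. The RUNX core TGTGGT (or ACCACA), found in 12.7% of windows, was in none of these 3. Of the matched windows not printed, Trat1 held 1 TCF and 1 RUNX core. Grap2, which also fell less than Lat, and Ubash3a held no TCF, RUNX or GATA core. Each match is a description of letters only.

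Trat1 was lower in each CD8αα group than in its companion group. It was higher in CD4 IEL than in CD8αβ IEL, and in CD8αα from CD4 than in CD8αα from CD8αβ. CD8αα from CD4 and CD8αβ IEL overlapped. Trat1 (ENSMUSG00000030775, chromosome 16, 48734690 to 48771956), whose product TRIM is associated with the receptor complex, was at 69.5, 73.3 and 86.8 CPM in CD4 IEL against 25.4, 33.4 and 51.1 in CD8αα from CD4. It was at 24.4, 11.2 and 32.7 in CD8αβ IEL against 9.81, 11.9 and 7.35 in CD8αα from CD8αβ, where the CD8αβ IEL library with the lowest value lay inside the CD8αα range. The log2 fold changes against the companion groups were -1.06 ± 0.34 (adjusted p = 0.02977) and -1.22 ± 0.35 (adjusted p = 0.01756). Among the 10 genes only Trat1 passed the threshold between the 2 CD8αα groups, higher in CD8αα from CD4 by 1.92 ± 0.35 log2 (adjusted p = 0.009687). CD4 IEL also exceeded CD8αβ IEL in Trat1, by 1.76 (adjusted p = 0.002485). Leaving out 1 library ended the first call in 4 of 12 cases (replicates 2 and 3 of CD4 IEL, replicates 1 and 2 of CD8αα from CD4), the second in 2 (replicate 3 of either group) and the difference between the CD8αα groups in 1 (without replicate 3 of CD8αα from CD8αβ, adjusted p = 0.05911). With only the CD8αα libraries that held Y-linked transcripts, none of these 3 differences was called: the first was -0.58 (adjusted p = 0.5299), the second -0.92 (adjusted p = 0.3326), and the difference between the CD8αα groups was larger than with all libraries (adjusted p = 0.5698). The second call was also lost with only the groups compared in the fit (adjusted p = 0.05975).

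Of the inhibitory adaptors, Sit1 and Ubash3a were close to absent from both CD8αα groups and Pag1 was not. Sit1 (ENSMUSG00000028460, chromosome 4, 43482081 to 43483734) encodes SIT, a transmembrane protein that recruits the phosphatase SHP2. It had 1293, 1058 and 1035 reads in CD4 IEL and 1281, 1053 and 912 in CD8αβ IEL, but 0, 0 and 21 in CD8αα from CD4 and 9, 6 and 12 in CD8αα from CD8αβ. The log2 fold changes were -7.12 ± 0.67 (adjusted p = 3.482e-06) and -7.26 ± 0.65 (adjusted p = 1.997e-06). All 21 reads of CD8αα from CD4 were in replicate 3, the library of that group with the highest T cell marker sum (99.8 CPM) and with Y-linked transcripts. Without that library Sit1 was at least 703-fold lower than in CD4 IEL (against 3 counts over the other 2 libraries), and it was called lower than in CD8αα from CD8αβ (adjusted p = 0.01926), a difference that was not called with all libraries (0.12, adjusted p = 0.9726).

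Ubash3a (ENSMUSG00000042345, chromosome 17, 31207873 to 31242202), whose product restrains receptor signalling and binds ubiquitin, had the largest fitted fall of the 10 genes with all 12 libraries. Its reads numbered 2730, 2073 and 1692 in CD4 IEL and 1724, 1760 and 1318 in CD8αβ IEL, against 2, 0 and 5 in CD8αα from CD4 and 5, 1 and 4 in CD8αα from CD8αβ. These counts are at the level that a 0 allows in a library, 3 counts or 0.271 to 0.534 CPM, or just above it. The log2 fold changes were -9.60 ± 0.42 (adjusted p = 6.133e-09) and -9.21 ± 0.40 (adjusted p = 4.648e-09). Its relative Ubash3b, a phosphatase, was present in all groups: 65.4 ± 12.4 CPM for CD4 IEL, 170 ± 19.5 for CD8αα from CD4 (1.38 log2 higher, adjusted p = 1.979e-05), 104 ± 7.34 for CD8αβ IEL and 181 ± 12.6 for CD8αα from CD8αβ.

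Pag1 (ENSMUSG00000027508, chromosome 3, 9687479 to 9833679) encodes PAG, or Cbp, which holds the inhibitory kinase CSK at the membrane. Its levels were 96.2, 106 and 74.2 CPM in CD4 IEL against 123, 87.0 and 105 in CD8αα from CD4, which overlapped (0.19 ± 0.20, adjusted p = 0.5422). In CD8αβ IEL they were 34.8, 25.9 and 30.4, and in CD8αα from CD8αβ 107, 68.5 and 79.6, which did not overlap (1.49 ± 0.21, adjusted p = 0.0001104). CD8αβ IEL was the low group: CD4 IEL exceeded it by 1.60 ± 0.21 log2 (adjusted p = 0.0002063), while CD4 IEL and both CD8αα groups overlapped one another. The test of the difference between the 2 changes gave -1.30 ± 0.29 (adjusted p = 0.03274), a call that ended in 8 of the 12 cases of 1 library left out (adjusted p up to 0.0923) and held without replicate 3 of CD4 IEL, replicate 1 of CD8αα from CD4, replicate 2 of CD8αα from CD8αβ or replicate 1 of CD8αβ IEL. With only the CD8αα libraries that held Y-linked transcripts it was -0.99 (adjusted p = 0.6206).

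The small SH2 adaptors differed in extent. Sh2d1a (ENSMUSG00000005696, chromosome X, 42502453 to 42523697) encodes SAP, which couples receptors of the SLAM family to the kinase FYN. It had 342, 257 and 203 reads in CD4 IEL, 551, 819 and 488 in CD8αβ IEL, 19, 14 and 18 in CD8αα from CD4 and 16, 9 and 0 in CD8αα from CD8αβ. The 4 groups did not overlap in CPM, with means of 33.7 ± 3.45, 81.0 ± 5.10, 2.55 ± 0.849 and 0.817 ± 0.757. Its log2 fold change was -3.75 ± 0.45 in CD8αα from CD4 (adjusted p = 2.85e-05) and -6.55 ± 0.50 in CD8αα from CD8αβ (adjusted p = 4.659e-07). The 2 changes differed by 2.80 ± 0.66 (adjusted p = 0.04229), a call that ended in 10 of the 12 cases of 1 library left out (adjusted p up to 0.1173) and held without replicate 1 or 3 of CD8αα from CD8αβ. With only the CD8αα libraries that held Y-linked transcripts it was 2.80 (adjusted p = 0.1327). The CD8αα groups themselves differed by 1.53 ± 0.55, which was not called (adjusted p = 0.1455). Exons of Sh2d1a share 1465 bases with Tenm1 on the opposite strand.

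Sh2d2a (ENSMUSG00000028071, chromosome 3, 87846755 to 87855722), the gene of the T cell-specific adaptor TSAd, which binds LCK, stayed abundant in every library. It was at 736, 695 and 929 CPM for CD4 IEL, 439, 518 and 428 for CD8αα from CD4, 1223, 1435 and 1347 for CD8αβ IEL and 661, 570.3 and 621 for CD8αα from CD8αβ. Again no 2 groups overlapped. The log2 fold changes against the companion groups were -0.77 ± 0.14 (adjusted p = 0.0007627) and -1.11 ± 0.14 (adjusted p = 3.072e-05).

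**Figure D4:**
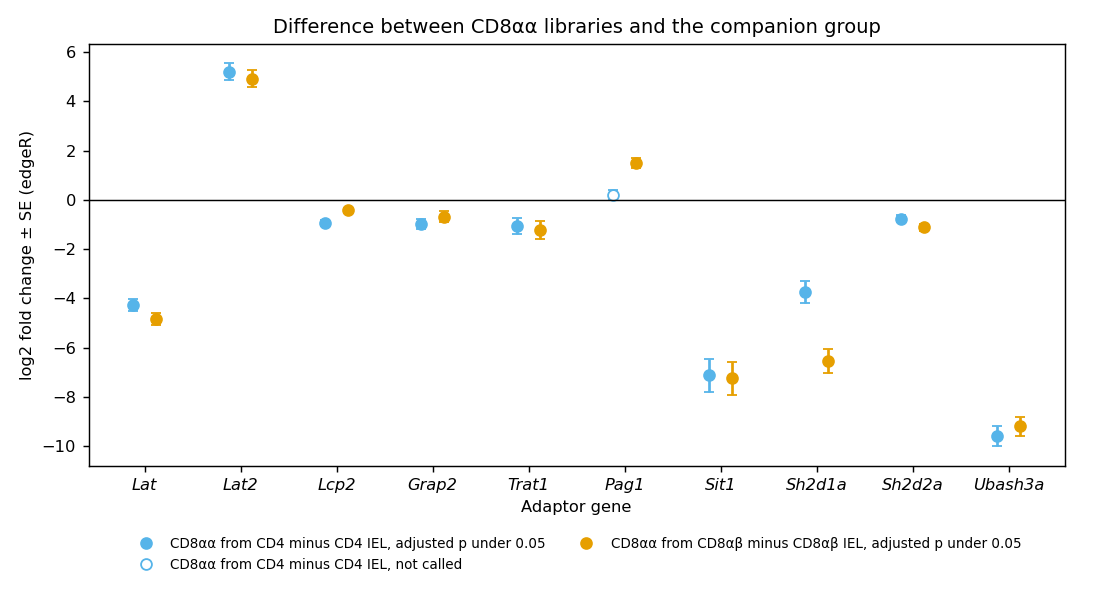
log2 fold change ± SE of each adaptor gene between CD8αα libraries and the companion group, by donor cell type. Filled points passed the threshold. Lat2 stands at 5.20 and 4.93, Pag1 is the other gene above 0, and Ubash3a, Sit1, Lat and Sh2d1a lie at -3.75 or below.

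Counted together, CD8αα from CD4 differed from CD4 IEL in 9 of the 10 genes, 1 higher and 8 lower, where 28.5% of the 12622 genes tested were called (15.0% higher, 13.5% lower). Between CD8αα from CD8αβ and CD8αβ IEL all 10 were called, 2 higher and 8 lower, against 31.2% of all genes (16.1% higher, 15.1% lower). With only the CD8αα libraries that held Y-linked transcripts, 8 and 7 of the 10 were called, against 9.56% and 10.6% of all genes in that fit. The libraries of the 2 groups did not overlap for 9 of 10 genes in each comparison, against 45.7% and 43.8% of all genes. The median log2 fold change of the 10 was -1.03 and -1.17, and that of all genes 0.02 and -0.00. Between the 2 CD8αα groups 1 of the 10 was called, higher in CD8αα from CD4, where 4.34% of all genes were called (1.87% higher, 2.47% lower, that is 236 higher and 312 lower in CD8αα from CD4, or 314 and 221 with library totals in place of TMM). The libraries did not overlap for 4 of the 10, against 28.8% of all genes. CD4 IEL and CD8αβ IEL differed in 5 of the 10, 3 higher and 2 lower in CD4 IEL, against 28.9% of all genes (12.9% higher, 16.0% lower, that is 1628 higher and 2025 lower in CD4 IEL, or 2309 and 1722 with library totals, which moved the median of all genes from 0.01 to 0.13). Without overlap there were 6 of the 10, against 41.5%. Besides Trat1 and Pag1, the 5 were Lcp2, higher in CD4 IEL (0.37, adjusted p = 0.02333), and Sh2d1a (-1.26, adjusted p = 0.02015) and Sh2d2a (-0.76, adjusted p = 0.001257), lower there. The Lcp2 call ended without replicate 3 of CD4 IEL (adjusted p = 0.06369) or replicate 2 or 3 of CD8αβ IEL (0.07453 and 0.05869), with only those 2 groups in the fit (0.08765) or with only the Y-linked CD8αα libraries in it (0.08658). The Sh2d1a call ended without any 1 of the 3 CD4 IEL libraries (0.05019 to 0.06271). The 2 changes themselves differed for 2 of the 10, Sh2d1a (1 of 10 positive, against 1.20% of all genes) and Pag1 (1 of 10 negative, against 1.35%), where 2.56% of all genes were called.

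Partners of the LAT complex were then read from a list of 24 genes, of which 23 were in the table and tested. In CD8αα from CD4, 3 were higher, 12 lower and 8 not called, with a median log2 fold change of -0.45. In CD8αα from CD8αβ, 3 were higher, 9 lower and 11 not called (median -0.22). The shares of all genes, to be read beside this and the following lists, were 15.0% higher and 13.5% lower in the first comparison and 16.1% and 15.1% in the second. The genes that rose most in both were Syk, the kinase of ITAM chains in B and innate cells, and Plcg2, phospholipase C-γ2. Syk was at 8.31 ± 5.58 CPM in CD4 IEL against 314 ± 11.5 in CD8αα from CD4 (5.23 log2 higher, adjusted p = 4.184e-05), and at 7.60 ± 8.77 and 224 ± 44.2 in CD8αβ IEL and CD8αα from CD8αβ (4.81, adjusted p = 6.299e-05). Plcg2 rose by 2.75 (adjusted p = 6.602e-07) and 4.61 (adjusted p = 1.315e-08), and its 2 changes differed (-1.86, adjusted p = 0.003828). Plcg1, the phospholipase that LAT binds in T cells, ran the other way: 379.9 ± 82.1 CPM for CD4 IEL, 62.3 ± 2.16 for CD8αα from CD4, 235 ± 102 for CD8αβ IEL and 39.8 ± 7.65 for CD8αα from CD8αβ, for changes of -2.61 (adjusted p = 1.751e-05) and -2.56 (adjusted p = 1.844e-05). Sos2, a Ras exchange factor, was higher by 0.97 in CD8αα from CD4 (adjusted p = 0.01163) and also higher in CD8αα from CD8αβ (adjusted p = 0.009026).

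Themis, which binds GRB2 and acts in thymic selection, changed by -5.60 log2 (adjusted p = 6.035e-09) in CD8αα from CD4 and by -4.54 (adjusted p = 1.037e-08) in CD8αα from CD8αβ. The adaptor gene Nck2 changed by -4.01 (adjusted p = 0.001632) in CD8αα from CD4 and had 1 read in all CD8αα from CD8αβ libraries against 160 in CD8αβ IEL, a ratio of 203 (95% counting interval 35.8 to 8051). Zap70, the kinase upstream of LAT, was at 738 ± 191 and 536 ± 3.78 CPM in CD4 IEL and CD8αα from CD4 (-0.46, adjusted p = 0.0341) and at 614 ± 17.1 and 583 ± 37.2 in CD8αβ IEL and CD8αα from CD8αβ (-0.08, adjusted p = 0.7544). Lck, which phosphorylates the ITAMs, was at 2239 ± 189, 1732 ± 77.6, 2229.9 ± 273 and 1939 ± 66.3 in the same 4 groups. Zap70 and Lck, and Klrb1c, Ncr1, Cd79b, Itgam and Cpa3 among the markers, were picked after their values were seen. So were the genes left out of the marker sums.

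**Figure D5:**
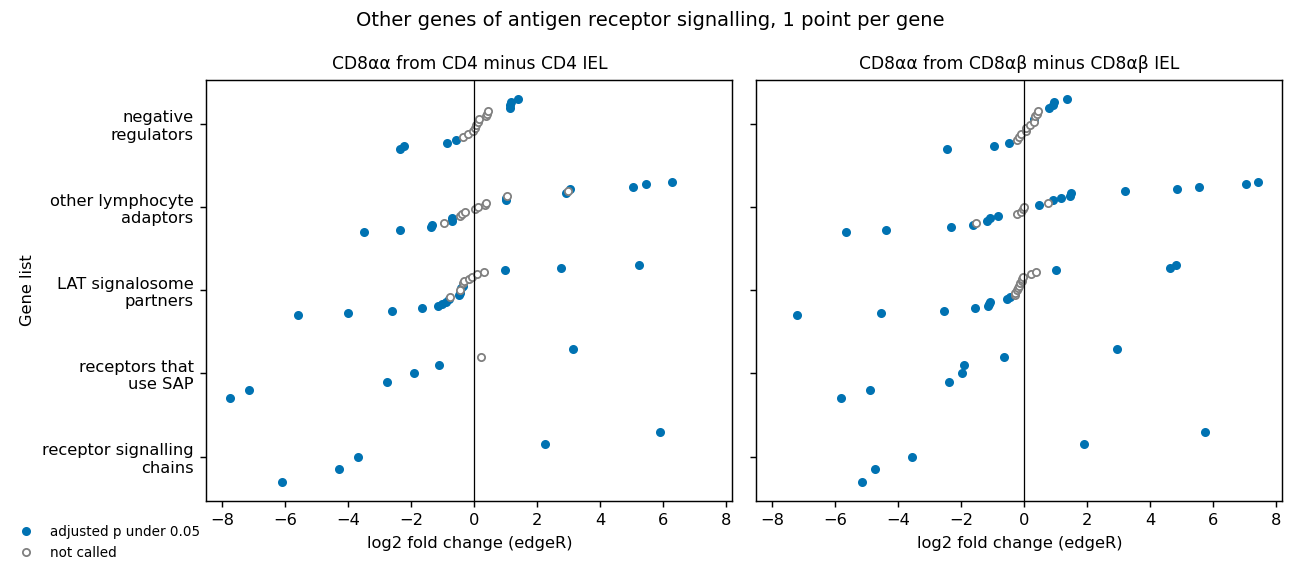
log2 fold change of every tested gene of 5 lists of receptor signalling genes, 1 point per gene, for CD8αα from CD4 (left) and CD8αα from CD8αβ (right) against the companion group. Filled points passed the threshold. Each list has genes on both sides of 0.

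The 5 receptor signalling chains, which carry the ITAMs that ZAP-70 and SYK bind, were all called in both comparisons, 2 higher and 3 lower (28.5% and 31.2% of all genes were called). Fcer1g, the chain of Fc and NK receptors, rose to 1109.8 ± 104 CPM in CD8αα from CD4, against 18.5 ± 11.4 in CD4 IEL, and to 1682 ± 469 in CD8αα from CD8αβ, against 31.5 ± 23.2 in CD8αβ IEL. Cd3g rose by 2.24 and 1.91 log2 (adjusted p = 2.587e-08 and 4.904e-08), while Cd3e changed by -6.11 and -4.74, Cd247 by -4.30 and -3.55 and Cd3d by -3.69 and -5.13.

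Other lymphocyte adaptors (23 tested of 24) were called higher 7 times and lower 6 times in CD8αα from CD4, and 10 and 7 times in CD8αα from CD8αβ (28.5% and 31.2% of all genes called), with medians of 0.11 and -0.00. Tyrobp, the DAP12 chain of NK and myeloid receptors, rose by 5.46 in CD8αα from CD4 (adjusted p = 2.407e-05). It was at 2219 ± 785 CPM in CD8αα from CD8αβ against 76.3 ± 76.9 in CD8αβ IEL. Sh2d1b1, the gene of the SAP relative EAT-2 of NK cells, rose by 6.26 and 5.55 (adjusted p = 6.023e-05 and 7.927e-05), reaching 129 ± 3.41 and 145 ± 18.6 CPM, whereas Sh2d1a itself was at 2.55 and 0.817 CPM there. Clnk, a relative of Lcp2 first described in cytokine-stimulated cells, rose by 5.04 and 7.02 (adjusted p = 6.835e-07 and 1.111e-07). Sh2d1b2 had 286 reads in CD8αα from CD8αβ and 1 in CD8αβ IEL, a ratio of 226 (95% counting interval 40.2 to 8952). Lax1, a transmembrane adaptor that resembles LAT, changed by -3.51 and -4.38 (adjusted p = 4.085e-07 and 4.95e-08), and Tespa1 by -2.36 and -2.31. Dok2 changed by -1.37 in CD8αα from CD4, and was at 113 ± 18.8 CPM in CD8αα from CD8αβ against 255 ± 42.6 in CD8αβ IEL. Bank1, a B cell adaptor, had 17 reads in CD8αβ IEL against 0 in CD8αα from CD8αβ. It was at least 7.18-fold lower there, against 3 counts over the group.

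Negative regulators (18 tested) were called higher 4 times and lower 4 times in CD8αα from CD4 and 5 and 3 times in CD8αα from CD8αβ (15.0% higher and 13.5% lower over all genes, then 16.1% and 15.1%), with medians of 0.09 and 0.23. The phosphatase genes Ptpn6 (SHP1) and Ptpn11 (SHP2) rose by 1.13 and 1.17 in CD8αα from CD4 and by 0.92 and 1.37 in CD8αα from CD8αβ. Sla2, an adaptor that lowers receptor levels, rose by 0.93 in CD8αα from CD8αβ (adjusted p = 8.259e-05). Its level was also above the companion group in CD8αα from CD4 (373 ± 32.2 CPM against 171 ± 20.6 in CD4 IEL). Dgka, which removes diacylglycerol, changed by -2.37 and -2.47, Cish by -2.24 and -0.95, and Rasal3 by -0.85 and -0.48.

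Receptors of the SLAM family were listed together as receptors that use SAP (7 tested), and whether each member uses SAP was not tested. In CD8αα from CD4, 1 was higher and 5 lower (13.5% of all genes were lower). In CD8αα from CD8αβ, 1 was higher and 6 lower (15.1% of all genes were lower). The medians were -1.91 and -1.99. Cd244, which encodes the NK receptor 2B4, rose by 3.12 and 2.96 (adjusted p = 2.588e-06 and 3.237e-06). Slamf6 changed by -7.74 and -5.82, Slamf1 by -7.14 and -4.89 and Cd84 by -2.76 and -2.37. Between the 2 CD8αα groups, the called genes of these 5 lists were Bank1, higher in CD8αα from CD4, and Cish, Ptpn6, Cd247 and Cd3g, lower there.

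The genes whose log2 CPM followed Lat most closely over the 12 libraries were Anxa6, Bzw2, Impdh1, Cd28 and Tpm4 (Pearson r 0.992 to 0.988). Cd28, a costimulatory receptor of T cells, was at 301 to 708 CPM in the T cell groups and 0.572 to 3.43 in the CD8αα groups. For Lat2 they were Cd244, Itih5, Il2rb, Fcer1g and Htra1 (0.996 to 0.992). Il2rb, the shared β chain of the receptors for IL-2 and IL-15, was at 678 to 888 and 3349 to 3935 CPM. The libraries form 2 clusters, CD8αα and the rest, so these r values are a description and carry no p.

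Markers of other cells that use Lat2 were at these levels. The sum of 10 B cell markers was 46.4 to 76.5 CPM in the CD8αα libraries and 7.63 to 22.7 in the others, with Cd79b at 49.3 ± 5.07 and 69.8 ± 3.67 in the 2 CD8αα groups and Pax5 and Ebf1 at 0 in all 12 libraries. The 10 mast cell markers summed to 1.20 to 8.96 CPM over all libraries, with Ms4a2, Fcer1a, Cma1, Tpsb2, Tpsab1 and Gata2 at 0. Of 2 tested, 1 was higher in each comparison (15.0% and 16.1% of all genes were higher). In CD8αα from CD4, 1 was lower (13.5% of all genes). Cpa3 was at 2.46 ± 1.24 CPM in CD8αα from CD4 against 0.167 ± 0.202 in CD4 IEL. It was at 3.42 ± 1.38 in CD8αα from CD8αβ against 0.305 ± 0.267 in CD8αβ IEL. The 11 myeloid markers in the table summed to 346 to 432 CPM in the CD8αα libraries and 79.2 to 229 in the others, with S100a8 and S100a9 at 0 throughout. Itgam (CD11b, also on NK cells) made up 241 ± 15.2 and 194 ± 45.3 CPM of that in CD8αα from CD4 and CD8αα from CD8αβ. Of 8 tested myeloid markers, Itgam and Cst3 were higher in each comparison (15.0% and 16.1% of all genes were higher). Lyz2, Cd68 and Csf1r were lower in CD8αα from CD8αβ (15.1% of all genes were lower there). Itgam and Cst3 were left out because they carried the myeloid sum, so a smaller remainder was built in. Without them the sum was 22.5 to 40.3 CPM in CD8αα from CD4 and 24.2 to 27.2 in CD8αα from CD8αβ. Both were below the 80.3 to 95.7 of CD8αβ IEL. The 29.2 to 77.2 of CD4 IEL overlapped CD8αα from CD4. Of 3 tested B cell markers, Cd79b was higher in both comparisons (15.0% and 16.1% of all genes were higher). Blk was lower in CD8αα from CD4 (13.5% of all genes were lower there). The part of these markers in the Lat2 result was not tested.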

How the data were processed

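The values analysed were raw counts of reads for each gene, as deposited and without normalisation, in 25965 rows. Of these, 66 repeated a symbol and were left out, keeping the row with most reads (0.0202% of reads). Reads were aligned with HISAT2 2.1.0 to mm10, per the submitters' processing notes. For the counting program, its annotation and its use of strand, nothing was given in the sources used here. Groups came from the sample titles. Genes were kept by filterByExpr (minimum count 10, minimum total 15), which left 12622 and all 10 adaptor genes. All 12 libraries entered 1 edgeR 4.0.16 quasi-likelihood model (R 4.3.3) with TMM scaling, tested two-sided and called at adjusted p under 0.05. DESeq2 1.42.0, other scalings, no filter, a replicate block and single libraries left out were alternatives. RPKM used GENCODE M21 exon lengths. The ratio of Lat to Lat2 was tested with 0.5 reads added to each count. Floors and intervals cover counting error only. Over genes with at least 20 reads, replicate pairs differed by a chi-square of 11.4 to 60.2 per gene, more than sampling noise. Named genes are all 10 adaptors, up to 3 called genes with the largest rise and fall of each signalling list and the 5 genes most like Lat and Lat2. The adaptors and lists were chosen with earlier results of these data known.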

Additional observations from a re-analysis of the deposited data

Results flagged for a closer look

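For Pag1, the test of the difference between the CD8αα change in hosts of CD4+ cells and that in hosts of CD8αβ+ cells passed the threshold at -1.30 on the log2 scale, a call lost in 8 of the 12 fits without 1 library and with only the Y-linked CD8αα libraries. Mean Pag1 levels (SD, n = 3) were 92.1 ± 16.2 CPM in CD4 IEL, where CD8αα from CD4 had 105 ± 17.9. CD8αβ IEL had 30.4 ± 4.46, where CD8αα from CD8αβ had 85.0 ± 19.8.

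Sh2d1a met the same test with a difference of 2.80, a call lost in 10 of those 12 fits and with only the Y-linked CD8αα libraries. Its mean was 13.2 times higher in CD4 IEL than in CD8αα from CD4 and 99.2 times higher in CD8αβ IEL than in CD8αα from CD8αβ, where it rested on 25 reads in 3 libraries, all in replicates 1 and 2.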

How the results depend on the processing

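Over 20 alternatives, Lat and Lat2 kept their calls and directions in both CD8αα comparisons (Lat -4.44 to -3.96 in CD8αα from CD4 and -4.98 to -4.67 in CD8αα from CD8αβ, Lat2 4.98 to 5.67 and 4.67 to 5.35), as did Sit1 and Ubash3a. Gene length by the longest coding transcript was chosen after seeing the data. With the Y-linked CD8αα libraries alone (chosen with earlier results known, 1 per group, assumed to vary like the other groups), 1280 and 1421 genes were called in the 2 comparisons with companion groups, against 3597 and 3940 with all libraries, 1 between the CD8αα groups against 548 and 13 for the difference between the changes against 323, with 0 adaptor genes in the last pair. The Lat to Lat2 ratio there was -9.47 (exact permutation p = 0.0625, the smallest that 16 arrangements give), Ubash3a between the CD8αα groups was 2.70 and its difference between the changes 2.34. Between the CD8αα groups, the fit of only the groups compared called 959 genes, and DESeq2 called 1036, with 2 adaptor genes (Trat1 and Sh2d1a). DESeq2 called 817 for the difference between the changes. The replicate block gave 3674, 3945, 663, 3815 and 356 genes called and changed no adaptor call. Same-numbered libraries correlated at -0.02 to 0.06 in hosts of CD4+ cells and 0.10 to 0.33 in hosts of CD8αβ+ cells, where each library correlated best with its own number, a hint from the data. Not every pair was over 0.1 and the labels tie the numbers to no shared animal, so the numbers were not taken to pair the samples.

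Leaving out 1 library gave 166 to 714 genes and 0 to 2 adaptor genes called between the CD8αα groups, 147 to 368 and 0 to 1 for the difference between the changes, and 3 to 5 adaptor genes between CD4 IEL and CD8αβ IEL. Small differences turned sign. Between the CD8αα groups Lat2 was 0.0184 with DESeq2 or its size factors, 0.0856 with library totals, 0.0268 with no filter, 0.0179 with only the groups compared and -0.0363 to 0.0469 with 1 library left out. Ubash3a there was 0.0403 with library totals and -1.24 to 0.69 with 1 library left out, and Sit1 -5.96 to 0.83. Between CD4 IEL and CD8αβ IEL, Grap2 was 0.0673 and Sit1 0.1073 with library totals, Sit1 0.0046 with the replicate block, and with 1 library left out Grap2 was -0.16 to 0.13, Lat2 -0.77 to 0.15 and Sit1 -0.18 to 0.15. For the difference between the changes, with 1 library left out, Lat2 was -0.15 to 0.80, Sit1 -5.95 to 0.85, Trat1 -0.17 to 0.50 and Ubash3a -1.59 to 0.33. The values of -5.96 and -5.95 for Sit1 arose without replicate 3 of CD8αα from CD4, which leaves that group with 0 reads. For the other sign turns the cause was not tested.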
